A study of Homo sapiens with 6 samples.

Results

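A set of 176 transcript probes was detected in control Caco-2 cells and fell below detection in both RAS-transformed lines. Caco-2 is a widely used human cell line from a colon adenocarcinoma. The members were chosen by their measured values. A member is a probe named by a GI sequence number that had a detection score of at least 0.99 on both control arrays, a score under 0.99 on all 4 RAS arrays, and a mean deposited control signal of at least 120 intensity units. By the manufacturer's convention, the detection score ranks a probe's signal against the negative controls of its array, and it nears 1 for bright probes. The members are 176 of the 24350 GI probes. They are 2.45% of the 7198 probes that were detected on both control arrays at a mean signal of 120 or more.

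The 6 arrays came in 3 groups of 2, all of Caco-2 cells grown below confluence with no treatment. One group is the Ha-RAS transformed line, described in 1 of its 2 labels as rapidly growing with an EMT (epithelial-to-mesenchymal transition) phenotype. Another is the Ki-RAS transformed line, described as rapidly growing, and the last is the control, described as adenocarcinoma. The design text calls the 2 samples of a RAS line biological replicates, without saying whether they were separate cultures, so p-values measure only the spread between these arrays. Each isoform is represented by 1 line. The labels name neither the RAS allele nor the vector. Each array detected 9245 to 10192 GI probes, with a median of 42 beads behind a signal over all probes. The probe of the epithelial marker keratin 8, GI_4504918-S (KRT8), read 7176 and 7112 in control cells, 9876 and 6672 in Ha-RAS cells, and 6856 and 7325 in Ki-RAS cells. The probe of the mesenchymal filament gene vimentin, GI_4507894-S (VIM), read 7912 and 7409 in Ha-RAS cells and lay between 63.5 and 75.6 on the other 4 arrays.

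RAS proteins are small GTPases that pass on signals for growth and division. Caco-2 cells are of colonic origin, yet they are known for small-intestinal and fetal liver-like traits, among them the making and secretion of apolipoproteins. Apolipoproteins coat lipid particles and carry them in lymph and blood, and liver and small intestine are their main sources.

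The files do not pair the GI numbers with gene names. Gene symbols below rest on background knowledge of the RefSeq records that bore these GI numbers, and they were not checked against a table. A first list held 9 secreted plasma proteins, of which albumin (GI_4502026) and transferrin (GI_4557870) had no probe under the listed number. The other 7 genes each had a probe, and all 7 probes were members. They are APOA1, APOA2, APOB, APOC3, APOH, TTR and AFP. Members with 4 further gene symbols of the same kind, AHSG, AGT, FGB and FGA, were recognised only after their values had been seen. Together these are 11 genes and 12 member probes. Both choices were made with earlier results of these data known, so the shared direction is a description of named members and not support for a pathway.

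The promoters of some of these genes are shown because they are the regulatory sequence of members that were lost together. RefSeq promoter entries on GRCh38.p14 were matched by symbol for 7 of the 11 genes (APOA2, APOH, AFP, AHSG, AGT, FGB and FGA). HNF1 is a transcription factor of liver and intestinal epithelium, and GTTAAT is the core of its known motif. Over the 250 bases before the start and on both strands, GTTAAT was present in 4 of the 7 genes (APOH, AFP, FGB and FGA), and in 6.23% of all 35116 promoter entries. The 150 bases before the start of these 4 genes are printed 5′ to 3′ on the gene's strand, with GTTAAT or its reverse complement in capitals.
APOH (chr17:66229416-66229565, minus strand): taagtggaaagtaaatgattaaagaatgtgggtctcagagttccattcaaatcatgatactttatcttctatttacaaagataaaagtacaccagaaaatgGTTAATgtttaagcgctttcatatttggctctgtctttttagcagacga
AFP (chr4:73436071-73436220, plus strand): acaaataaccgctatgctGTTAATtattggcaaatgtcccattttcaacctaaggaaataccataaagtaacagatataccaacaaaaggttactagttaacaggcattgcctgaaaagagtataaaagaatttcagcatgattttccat
FGB (chr4:154562830-154562979, plus strand): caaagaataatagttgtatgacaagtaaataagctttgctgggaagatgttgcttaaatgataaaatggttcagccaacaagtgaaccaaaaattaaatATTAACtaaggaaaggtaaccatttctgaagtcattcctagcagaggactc
FGA (chr4:154590743-154590892, minus strand): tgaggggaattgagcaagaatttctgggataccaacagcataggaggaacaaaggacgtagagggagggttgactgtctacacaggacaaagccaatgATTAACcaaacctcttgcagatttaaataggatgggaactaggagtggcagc
The capitals begin 49 bases before the start in APOH, 132 in AFP, 51 in FGB and 52 in FGA, and APOH held a further match at 210 bases before the start, outside the printed stretch. The full HNF1 palindrome was found in none of the 7 and in 2 of all entries. Of motifs of other liver factors, the HNF4 motif CAAAGTCCA was found in AHSG (0.325% of all entries) and its variant CAAAGTTCA in none of the 7 (0.251%). The FOXA motif TGTTTAC was found in APOA2 (2.98%) and its variant TGTTTGC in AHSG and FGA (3.23%). The TATA box TATAAA was found in AFP and AGT (10.7%). These matches describe the letters of the window and show no binding. The 7 genes were picked as plasma protein genes, and AHSG, AGT, FGB and FGA only after their values had been seen. The shares over all entries are therefore no test of enrichment, and a role of any of these factors in the loss was not tested.

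Some of the named genes are neighbours in the RefSeq annotation of GRCh38.p14. APOC3 (chr11:116829907-116833072) and APOA1 (chr11:116835751-116837622) lie 2678 bases apart. FGB (chr4:154562980-154572807) and FGA (chr4:154583126-154590742) lie 10318 bases apart. The array probes are known only by GI number, so the position of a probe within its gene is not given here.

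Among the lipid carriers, apolipoprotein A-I showed the highest control signal of all 176 members. APOA1, the main protein of high-density lipoprotein, was measured by GI_4557320-S at 6282 and 8974 on the control arrays, 76.2 and 78.2 on the Ha-RAS arrays, and 74.1 and 73.9 on the Ki-RAS arrays. The groups did not overlap, which the rule fixed. Its loss came to at least 249-fold for Ha-RAS and to at least 220-fold for Ki-RAS. Such a bound sets the mean normalized control level against, on each RAS array, the higher of the probe's own level and the lowest level of any detected probe. For every member the lowest detected level was the higher one on each RAS array. Within a line, bounds therefore differ between members only through the control level. The bound also depends on the background correction, and for APOA1 it was 97.9 and 92.9 without any. All bounds are on background-corrected, quantile-normalized log2 intensities of 2 arrays a line, and they carry no test because the same contrast chose the members.

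APOA2, another high-density lipoprotein component (GI_4502148-S), read 1255 and 1749 in control, 61.1 and 63.1 in Ha-RAS, and 66.1 and 69.8 in Ki-RAS cells, a loss of at least 46.8-fold and at least 41.3-fold. APOB, the structural protein of chylomicrons and low-density lipoprotein (GI_4502152-S), read 744.5 and 822.7 in control, 64.3 and 64.2 in Ha-RAS, and 66.2 and 55.3 in Ki-RAS cells, with bounds of 23.7-fold and 20.9-fold. APOC3, an inhibitor of lipoprotein lipase (GI_4557322-S), read 252.6 and 569.1 in control, 64.4 and 61.8 in Ha-RAS, and 62.7 and 60.2 in Ki-RAS cells. Its control arrays were the farthest apart of the named genes, by 1.02 on the normalized log2 scale, and its bounds were 10.1-fold and 8.95-fold. APOH, or beta-2-glycoprotein I, which binds phospholipids (GI_4557326-S), read 1226 and 1590 in control, 73.9 and 59.3 in Ha-RAS, and 63.2 and 82.4 in Ki-RAS cells. The Ki-RAS B reading had a detection score of 0.96, the highest of the 4 RAS arrays for this probe.

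Carrier and precursor proteins of plasma made up the other named members. Alpha-fetoprotein (AFP, GI_4501988-S), the major plasma protein of the fetus, read 585.5 and 652.1 in control cells, 85.1 and 77.4 in Ha-RAS cells, and 67 and 69.3 in Ki-RAS cells, a loss of at least 18.2-fold and at least 16.1-fold. Transthyretin (TTR, GI_4507724-S), the carrier of thyroid hormone and of retinol-binding protein, read 421.8 and 622.3 in control, 76.1 and 79.1 in Ha-RAS, and 75.6 and 79.7 in Ki-RAS cells. AHSG, or fetuin-A, an inhibitor of mineral deposition (GI_4502004-S), read 1347 and 1913 in control, 65 and 74.6 in Ha-RAS, and 74.3 and 80.2 in Ki-RAS cells, with bounds of 51.3-fold and 45.3-fold. All RAS readings of these 3 probes were below detection.

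AGT, the precursor of angiotensin (GI_4557286-S), read 390.2 and 572.4 in control, 70.8 and 78.8 in Ha-RAS, and 66.9 and 69.8 in Ki-RAS cells. Fibrinogen, the precursor of the fibrin clot, is built from alpha, beta and gamma chains. No probe was assigned to the gamma chain here, so whether it is among the members is not given. The beta chain FGB (GI_11761630-S) read 712 and 959 in control, 68.8 and 68.1 in Ha-RAS, and 74.8 and 72.6 in Ki-RAS cells. The alpha chain FGA had 2 member probes, GI_11761628-I at 213.7 and 248.1 and GI_11761628-A at 156.8 and 180.8 in control cells, and both lay between 58.8 and 69 on the RAS arrays. Over the 12 probes the RAS readings ran from 55.3 to 85.1, and the median bound was 20.9-fold for the Ha-RAS line and 18.5-fold for the Ki-RAS line. The same medians over all 176 members were 4.63 and 4.08. Since a bound varies between members only with the control level, these medians restate how bright the probes were in control cells. Of the 12 probes, 5 were recognised only after their values had been seen. Over the 7 probes of the first list alone, the median bound was 23.7 and 20.9.

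**Figure D1:**
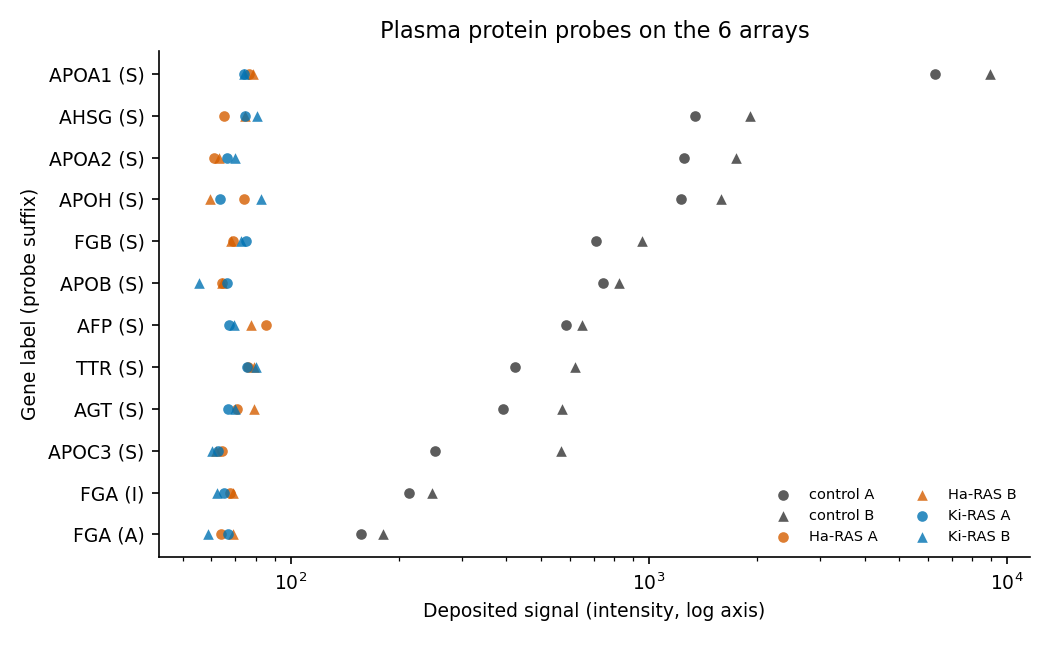
Deposited signal (intensity, log axis) of the 12 member probes with a plasma protein gene symbol, with the probe suffix in brackets; circles are replicate A and triangles replicate B. The RAS readings lie between 55.3 and 85.1 for every probe shown, while the control readings reach from 156.8 for FGA to 8974 for APOA1.

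The other members are given by probe ID. The second brightest, GI_16507959-S, read 4050 and 4749 in control, 67.1 and 67.1 in Ha-RAS, and 62.1 and 63.5 in Ki-RAS cells, a loss of at least 146-fold and at least 129-fold. The next, GI_45505131-S, read 3859 and 3825 in control cells and 68.1 to 80.7 on the RAS arrays. GI_32698756-S read 1869 and 2631 in control cells and 73.1 to 86.2 on the RAS arrays. Both of these lost at least 50-fold in each line.

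Ranks 6, 7 and 10 were GI_24497500-S (1476 and 1685 in control), GI_41152057-S (1200 and 1836) and GI_18201910-S (1294 and 1520). Of the 10 brightest members, 4 thus carry a gene symbol here (APOA1, AHSG, APOA2 and APOH). On the RAS arrays these 10 read between 56.4 and 86.2, with bounds from 43.8-fold to 249-fold in Ha-RAS cells and from 38.6-fold to 220-fold in Ki-RAS cells.

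Over all members the mean control signal ran from 120.55 to 7628, with a median of 201. It reached 1000 in 15 members, lay from 500 to 1000 in 18, from 200 to 500 in 55, and under 200 in 88. The bright loss was the rarer one among what control cells expressed. Members were 1.30% of the 1155 control-detected probes at 1000 or more and 4.198% of the 2096 probes from 120 to 200, a description that the detection limit favours, since a dim probe needs less of a fall to become undetected. On the RAS arrays the members read 55.3 to 88 for Ha-RAS and 48.5 to 85.9 for Ki-RAS, and the median member averaged 71.2 and 70.1. The median undetected probe read 66.6 to 71.1 on these arrays.

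On the background-corrected values (offset 16), the bound was at least 2-fold for all 176 members in Ha-RAS cells and for 175 in Ki-RAS cells. It was at least 10-fold for 41 and 39 members, and at least 50-fold for 6 and 4. The lowest bounds were 2.24 and 1.98. Bounds were lower for Ki-RAS cells because the lowest detected level was higher on those arrays (5.17 and 5.21 on the log2 scale, against at most 5.02 on the Ha-RAS arrays), so the bounds do not order the 2 lines. Without background correction the median bounds were 2.43 (Ha-RAS) and 2.30 (Ki-RAS).

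**Figure D2:**
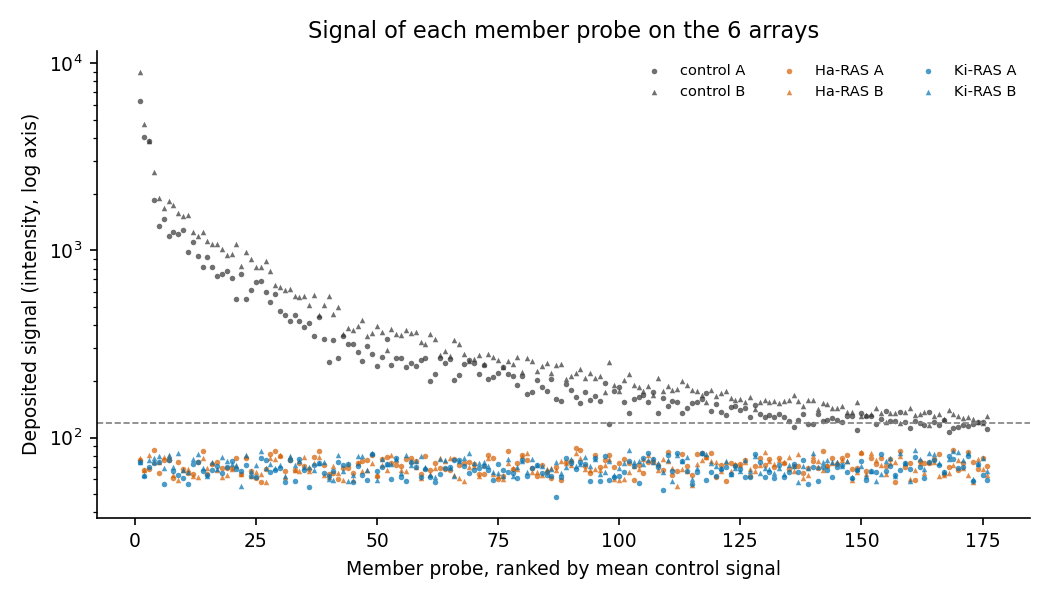
Deposited signal (intensity, log axis) of the 176 members on each of the 6 arrays, ranked by mean control signal, with the chosen minimum of 120 as a dashed line. Control readings fall from 8974 at the left to about the minimum at the right, and the RAS readings stay between 48.5 and 88 at every rank.

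The members nearest the chosen minimum were as dim as their neighbours outside it. Just inside, GI_21265112-S averaged 120.55 and GI_28603817-S 120.6 in control cells. Just outside, GI_25092600-S averaged 118.45 and GI_13518038-A 117.4. The same detection pattern with no minimum held 322 probes, of which 146 lay below it.

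The suffix of a probe gives its target, where S stands for a gene with a single known transcript, A for a probe shared by every isoform, and I for a probe of 1 isoform. Of the members, 145 were S, 17 A and 14 I. These were 2.42% of the 5983 control-bright S probes (detected on both control arrays with a mean of 120 or more), 1.95% of the 871 A probes and 4.07% of the 344 I probes. Median control signals were close, at 199.7 for S, 218.7 for A and 199.6 for I. The brightest A members were GI_15149478-A (682.5 and 819.9 in control, 61.1 to 71.4 on the RAS arrays), GI_11761634-A (597 and 881.2 against 58.2 to 76.2) and GI_37588870-A (308.9 and 347.4 against 59.6 to 75.7). The brightest I members were GI_21536270-I (1115 and 1262 in control, 62.5 to 76.6 on the RAS arrays), GI_32528283-I (266.4 and 353.4 against 61.4 to 70.6) and GI_44680142-I (259.8 and 325 against 60.9 to 80.3).

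Some records had both an I and an A probe, which gives a further reading that the choice of the member did not use unless the other probe was also a member. Of the 31 A and I members, 16 had such a companion, over 11 GI numbers. In 5 of these numbers both probes were members (GI_11761634, GI_44680142, GI_21536336, GI_11761628 and GI_16933543). In 2 more, GI_12056480 and GI_7657036, the companion had the same detection pattern at a control mean below 120. In 3, GI_37588870, GI_24497503 and GI_4507396, the companion was undetected on all 6 arrays, so that 1 probe of the record alone gave a signal in control cells. That probe was the A probe in GI_37588870 and GI_24497503. In GI_4507396 it was the I probe, at 130.8 and 132.7 in control cells, while the A probe read 61.1 and 62.1. The last case is at odds with an A probe shared by every isoform, and its reason was not tested.

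In the remaining record the probes parted. The isoform probe GI_27894333-I read 205 and 221.7 in control cells, 60.6 and 68.7 in Ha-RAS, and 62.5 and 68.3 in Ki-RAS cells. The all-isoform probe GI_27894333-A read 352.3 and 473.4 in control, 72.8 and 63.1 in Ha-RAS, and 101.4 and 109.1 in Ki-RAS cells. Both Ki-RAS arrays detected it, and neither Ha-RAS array did.

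**Figure D3:**
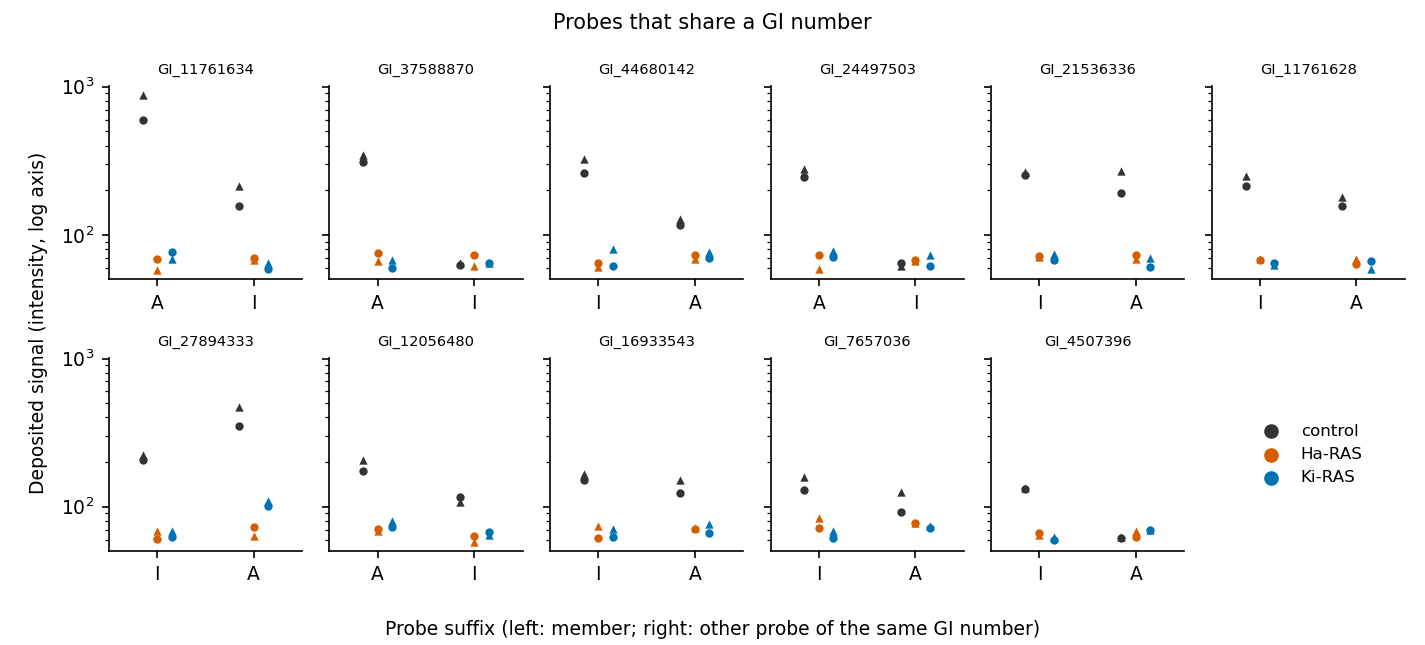
Deposited signal (intensity, log axis) of the 11 GI numbers with an isoform (I) and an all-isoform (A) probe of which at least 1 is a member, with 6 arrays per probe; circles are replicate A and triangles replicate B. In GI_27894333 the A probe stays at 101.4 and 109.1 in Ki-RAS cells, and in GI_37588870, GI_24497503 and GI_4507396 the right-hand probe was undetected on all 6 arrays.

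How firmly the members were off in the RAS lines was read from the detection scores, which the rule only capped at 0.99. The highest of a member's 4 RAS scores had a median of 0.893, and it ran from 0.194 to 0.9897. Among the 12043 probes detected on no array the same median was 0.828. The highest score was 0.95 or more for 54 members (30.7%) and for 19.6% of the never-detected probes, and under 0.5 for 11 members (6.25%) and 12.8%. On single arrays the median member score was 0.601 to 0.668, against 0.539 to 0.561. The members' RAS readings thus sat somewhat nearer the detection limit than those of never-detected probes, a difference that was not tested. The highest score was shared by GI_24308407-S, GI_34147373-S and GI_7656978-S. GI_24308407-S read 88 and 83.3 on the Ha-RAS arrays and 68.5 and 70.8 on the Ki-RAS arrays. In the same order, GI_34147373-S read 82.5 and 76.3, then 83.2 and 83.1. GI_7656978-S read 74 and 80.5, then 83.2 and 75.6.

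**Figure D4:**
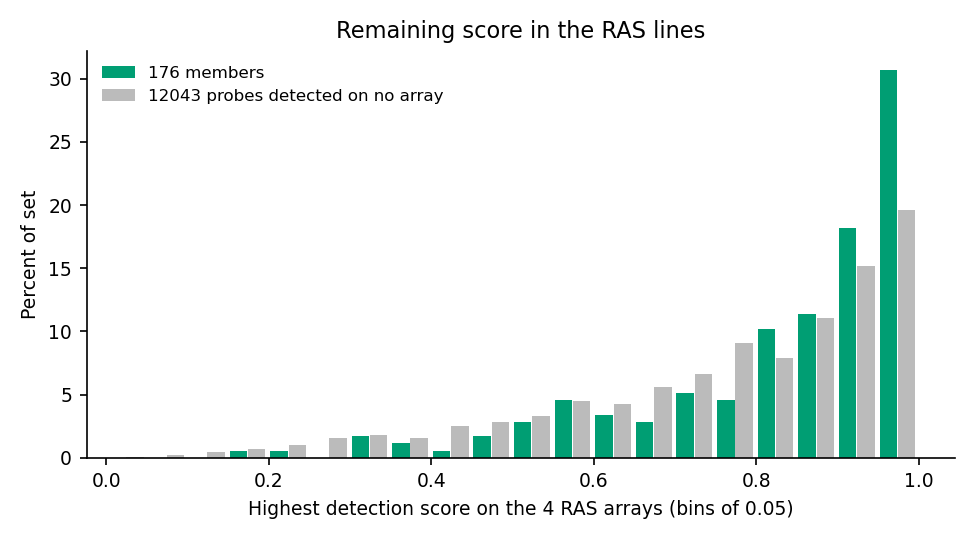
Percent of probes by their highest detection score on the 4 RAS arrays, in bins of 0.05, for the 176 members and for the 12043 probes detected on no array. The top bin holds 30.7% of the members and 19.6% of the never-detected probes.

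The rule was also applied to each replicate letter alone and read on the other letter. The members themselves were chosen on all 6 arrays, so the shares below describe repeatability between arrays and are no independent support. Applied to the A arrays alone, the rule found 182 probes, and all 182 were detected on control B. Of these, 161 (88.5%) were undetected on both B arrays of the RAS lines. Over all 6920 probes that were detected with a signal of 120 or more on control A, 2.51% were. Applied to the B arrays alone, the rule found 207 probes, all detected on control A, and 182 of them (87.9%) were undetected on both A arrays of the RAS lines, against 2.88% of the 7401 probes bright on control B. The 2 lists shared 158 probes, which is 86.8% of the first and 76.3% of the second.

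Within the control, the deposited signal was higher on array B than on array A for 161 of the 176 members (91.5%), and for 87.0% of all 7198 control-bright probes. After normalization it was higher on B for 105 members (59.7%), against 48.2%. The median normalized difference was 0.07 for members and -0.01 for control-bright probes. A difference of at least 1.5-fold was found for 8 members (4.55%, 7 of them higher on B) and for 5.13% of control-bright probes. The APOC3 probe is 1 of these 8.

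The fit across all probes also compared the RAS lines with each other, by limma over 10848 probes, those that any of the 3 lines detected on both of its arrays. The members passed this filter only through the control, and the rule held their readings below detection in both lines, so nothing about the lines is read from their calls. At an adjusted p below 0.05, 7 members (3.98%) were called, beside 59.7% of all probes tested. Of the 7, 6 were fitted lower in Ha-RAS cells (28.1% of all probes) and 1 higher (31.6%), all on readings below detection. The rule limits how far the lines can differ in a member, so the low share is no result about the members. With cyclic loess in place of quantile normalization 52 members were called, all lower in Ha-RAS cells, and without Ha-RAS replicate B 3 were called.

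No size of a difference between the lines is given for these 7, since neither line detected them. Their fitted direction is not read as a result either. The first 4 by size of the moderated statistic, listed only to identify the probes, were GI_13124884-S, GI_4503280-S, GI_20149595-S and GI_31377583-S. The brightest of these in control cells, GI_4503280-S, read 685.4 and 813.5 there, 57.9 and 64.2 in Ha-RAS, and 77.9 and 84.6 in Ki-RAS cells. Its highest RAS detection score was 0.982, below the threshold of 0.99, so its RAS readings are not set against each other.

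Loss from 1 line alone was counted in the same way. Of the 7198 control-bright probes, 6607 (91.8%) were detected on all 4 RAS arrays. A further 106 (1.47%) were detected in Ki-RAS but on no Ha-RAS array, and 129 (1.79%) in Ha-RAS but on no Ki-RAS array. The median control signal was 218.3 for the first, 182.5 for the second and 201 for the 176 members. Control signals of 1000 or more were found for 7, 6 and 15 probes. The comparisons of both lines share the control arrays. In bulk RNA, fewer cells with a transcript and less of it per cell cannot be told apart.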

How the data were processed

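Total RNA of 6 Caco-2 samples was labelled with biotin and hybridised to bead arrays, per the labels' protocols. Per the file headers, the deposited tables hold a mean bead intensity per probe on a linear scale, its spread between beads, how many beads were read, and a detection score, which is a fraction. The design text states that the authors left the intensity values without normalization, and BeadStudio 1.5.13 was used, per the submitters' processing notes. For background subtraction, the step is not given in the sources used.

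After 4 bacterial control probes were left out, background was corrected with nec of limma 3.58.1 (R 4.3.3, offset 16, detection p taken as 1 minus the score). Values were log2 transformed and quantile normalized. The limma fit had 3 group means over all 6 arrays (3 residual degrees of freedom), two-sided, with Benjamini-Hochberg adjustment over 10848 probes, and was tested on simulated data.  The number of arrays limits the precision.

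Named probes were the 10 brightest members, the 3 brightest of classes A and I, the 2 nearest on each side of the minimum, the 2 highest RAS scores, up to 4 members called between the RAS lines, and a list of GI numbers of known genes. 4 gene symbols, GI_7656978-S (tied for the highest RAS score), GI_27894333 and the other records with companion probes were added after values were seen. Members and lists were chosen with earlier results of these data known. The alternatives covered the rule, the background, the normalization, the filter, the spread estimate, the replicate letter and each array left out.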

Additional observations from a re-analysis of the deposited data

How the results depend on the processing

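The number of members was 88 with a control minimum of 200, 322 with none and 122 at a detection score of 0.95, and it ran from 161 to 189 with 1 array left out. The median bound for Ha-RAS and Ki-RAS cells was 2.43 and 2.30 without background correction, 2.77 and 2.60 with an offset of 50, 5.32 and 4.52 with cyclic loess, 4.54 and 4.37 with a common median, and with 1 array left out it ran from 4.42 to 5.03 and from 3.91 to 4.43. The members called between the RAS lines, all undetected there, numbered 3 with an offset of 50, 4 with a common median, 52 with cyclic loess, 4 with no filter on dim probes, and 3 to 10 with 1 array left out. The common median moved the median difference of all probes tested from 0.06 to 0.30. GI_31377583-S lost its call in 5 of 15 alternatives, and no call of a member, kept or lost, is read as a result about the lines. The replicate letters are not stated to pair samples, and the deviations of same-letter arrays correlated at -0.17, -0.18 and 0.10. With the letter as a replicate block 5 members were called. The bound of APOA1 ran from 92.9 to 277 over both lines and all alternatives. The cause of these shifts was not tested. Levels below the lowest detected signal could not be ordered.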
